A study of Drosophila melanogaster with 4 samples.

Results

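CrebA, Hr4, cwo, CtBP and tara are 5 fly genes for regulators of transcription, and all rows that the deposited tables list under these names, 48 of 17175 intervals and 5 of 4841 genes, are described across the parts of their transcripts. The genes were chosen by the deposited fold changes and adjusted p-values of an intron or a 5' UTR (the leader of the mRNA), so those values are given as descriptions and nothing rests on them. The tables come from individual-nucleotide resolution crosslinking and immunoprecipitation (iCLIP) in SL2 cells, a male line from Drosophila melanogaster embryos. The groups are 2 Ssx IP libraries, made with a polyclonal rabbit antibody to the RNA-binding protein Sister of Sex-lethal (Ssx), and 2 control libraries made with rabbit IgG, with no other treatment in the labels. Whether libraries of a group are separate cultures is not stated, so the p-values cover the scatter among these libraries alone, and that scatter may be technical. SL2 is a single cell line, and of 8 haemocyte genes looked up as its markers 5 are listed in at least 1 table, with Hml, NimC1 and He among the unlisted. Of genes of other cell types, 2 of 3 for neurons, 3 of 3 for muscle and 0 of 2 for germ line are listed, so presence in such sparse tables does not settle the cell type.

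Ssx is a paralog of Sex-lethal (Sxl), the switch protein of fly sex determination, which binds uridine-rich RNA and acts on splicing through sites in introns and on translation through sites in untranslated regions. Regulators of transcription often have long introns and several promoters, so that the first exons of 1 isoform lie inside an intron of another. In iCLIP, ultraviolet light fixes a protein to the RNA it touches, and reads mark where in a transcript that contact lay. The level of an intron in such data depends also on how much unspliced RNA the cells hold.

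The authors deposited a separate table for introns, coding sequence (CDS) and each kind of untranslated region, with a mean of normalized reads, a log2 fold change, its standard error and DESeq2 p-values per interval. The tables do not state the direction of the fold change, and positive values were taken to mean more reads in the Ssx IP, which is likely from the name under which they were deposited. No column holds the values of a library, but the means are sums of whole reads over size factors, and whole reads in 4 libraries could be solved from them for every interval of the 5 genes. The same order of libraries was found in all tables from intervals that share their reads. These libraries carry no names and were assigned to no sample, so they are called libraries 1 to 4. The signs of the fold changes place libraries 1 and 2 in the same group and libraries 3 and 4 in the other. In CDS, intervals with reads only in library 1 (CrebA) or 2 (the gene h) had log2 fold changes of 0.83 and 0.66. Those with reads only in library 3 (CtBP) or 4 (osa) had -0.56 and -0.97. With the direction taken here, libraries 1 and 2 would be the Ssx IP. Over non-overlapping intervals, libraries 1 to 4 held 59851, 47612, 13379 and 5566 intron reads and 3871, 3966, 696 and 352 5' UTR reads. Libraries 3 and 4, which were the shallowest pair in both tables, thus held 11.8% of the 5' UTR reads and 14.99% of the intron reads. In nearly all intervals of the 5 genes, the sign of a fold change follows the balance between the 2 pairs after scaling. An exception is a CrebA intron (15550597 to 15550863) with 2, 0, 0 and 0 reads and a log2 fold change of -0.0004. Few reads in libraries 3 and 4 thus restate a positive fold change. Comparisons of reads with the spread of a whole table are thus given below as descriptions, not as separate evidence.

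Across the 48 intervals, 6 passed an adjusted p of 0.05 in the authors' deposited tables, all with positive fold changes. They are a 5' UTR of tara, a pair of 5' UTR intervals of cwo that hold the same reads, and 1 intron each of CrebA, Hr4 and CtBP. Of the tested 5' UTR intervals of these genes 3 of 6 passed, against 10.7% of all tested 5' UTR intervals in this direction, and of their introns 3 of 11 passed, against 3.62%. In the negative direction 0 of the 21 tested intervals of these genes passed. These include 0 of 11 introns, against 5.57% of all tested introns, and 0 of 1 3' UTR interval, against 0.692%. So few tested intervals cannot show a lack of negative calls. Nothing can be read from these shares, because the genes were picked for those values. A tested interval is one listed with an adjusted p, and 27 of the 48 have none because of their low means. The deposited adjusted p-values imply another number of tests than is listed. They imply 183 tests in 5' UTRs, 550 in 3' UTRs and 706 in introns, where 122, 289 and 1023 intervals have one. Shares of tested intervals, here and below, are thus of the listed ones, and the full set that the authors tested is not known. Isoforms repeat reads, and the 48 intervals hold 38 distinct sets of reads.

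**Figure D1:**
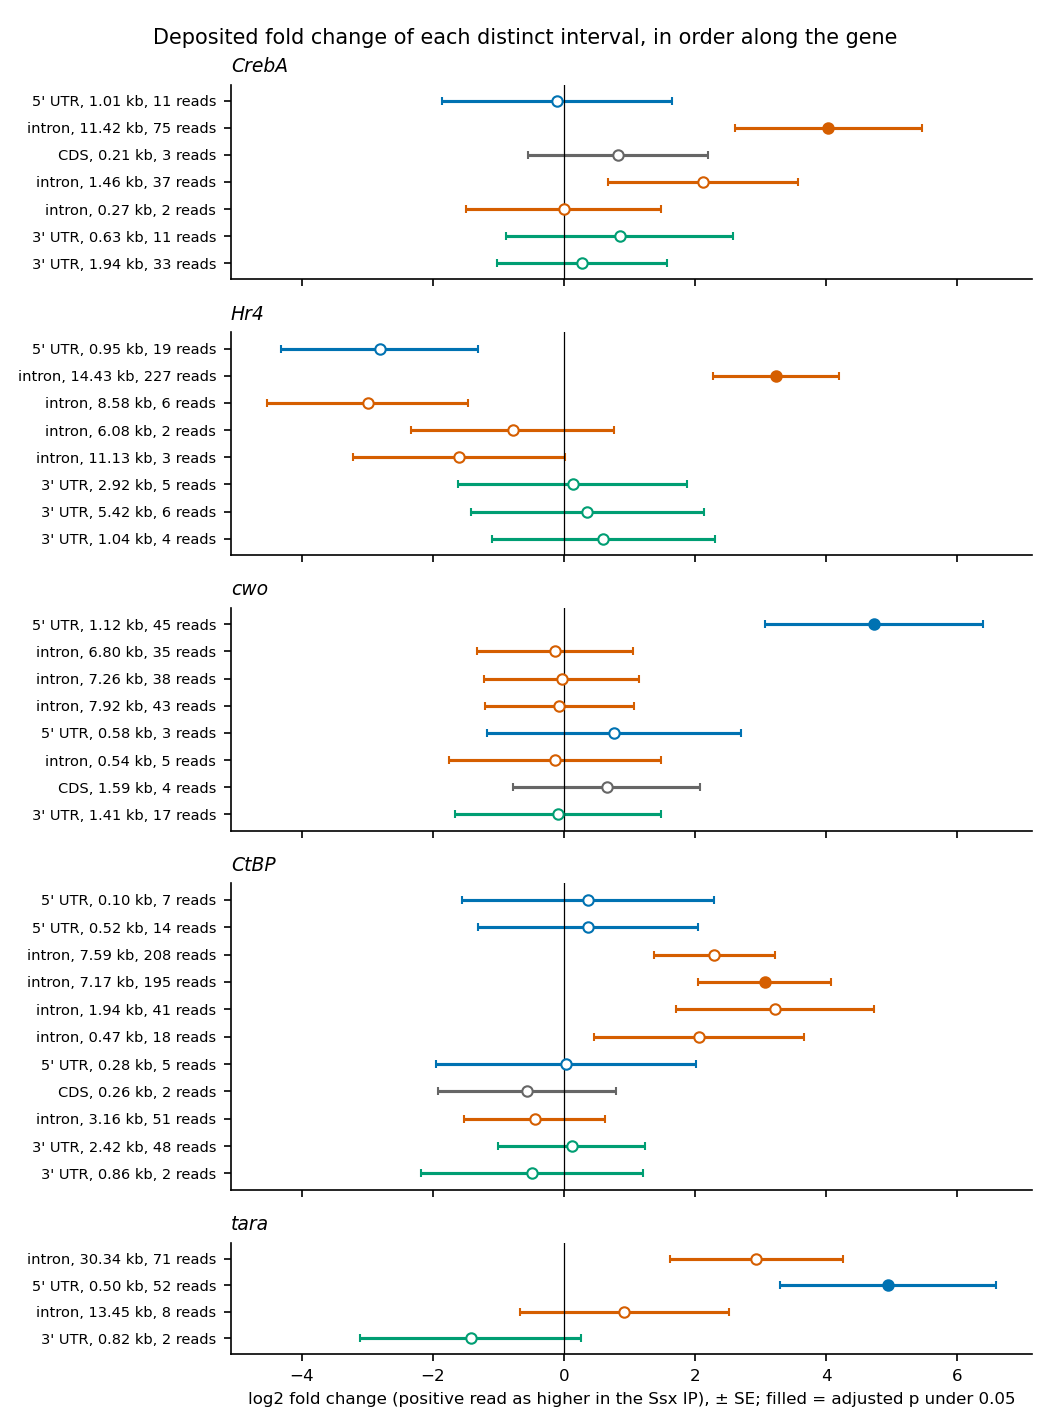
Deposited log2 fold change (x axis, bars are ± 1 SE) of each distinct interval of the 5 genes, in order along each gene from top to bottom, with the interval's length and its reads over 4 libraries. Filled points have an adjusted p under 0.05; they are 1 interval in each gene, while most other intervals of the same genes lie within 1 or 2 SE of 0.

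The DNA-binding factors come first. CrebA encodes a basic leucine zipper activator of secretory pathway genes (3L, 15535395 to 15553214 on dm6, plus strand). Its long intron (15536456 to 15547875, 11.4 kb) starts 54 bases after the listed 5' UTR and ends at a coding exon. Libraries 1 to 4 held 37, 38, 0 and 0 reads there. Both shallow libraries were thus empty. By counting error alone, 0 reads leave room for an expected count of up to about 3 in each (95% confidence). Further scatter between libraries would leave room for more. The 75 reads spread as the whole intron table would have put 11.2 into these libraries. The authors' deposited table gave this intron a log2 fold change of 4.04 ± 1.43 (SE; adjusted p = 0.0496 by DESeq2), just inside the threshold. Of tested introns, 1.08% had a value as large.

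The next intron of CrebA (15548087 to 15549548, 1.46 kb), on the other side of a coding exon of 211 bases, was more densely covered. It held 25.3 reads per kb over the 4 libraries, against 6.57 reads per kb in the long intron. Its reads were 19, 17, 1 and 0 in libraries 1 to 4, the same lean to libraries 1 and 2, but the interval has no adjusted p. The authors' deposited table gave it a log2 fold change of 2.12 ± 1.45, with an unadjusted DESeq2 p of 0.143.

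No other part of CrebA passed. The 5' UTR (15535395 to 15536401) held 5, 2, 3 and 1 reads in libraries 1 to 4, and had -0.11 ± 1.75 (log2 scale) in the authors' deposited table. The longer 3' UTR interval (15551275 to 15553214) held 16, 11, 1 and 5 reads and had 0.28 ± 1.29 in the authors' deposited table. Its 6 reads in libraries 3 and 4 compare with 5.21 for a spread like that of the whole 3' UTR table. The coding exon held 3 reads and the third listed intron 2, too few to show a difference.

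Hr4 encodes an orphan nuclear receptor of the ecdysone response, the hormone cascade of moulting and metamorphosis (X, 1941940 to 2007956, plus strand). Its called intron (1953467 to 1967895, 14.4 kb) lies inside the gene, more than 10 kb after the listed 5' UTR. It had the most reads of all intervals of the 5 genes, 122, 101, 3 and 1 in libraries 1 to 4. Spread as the intron table, 34.0 of these 227 reads would lie in libraries 3 and 4, where 4 were found. The authors' deposited table gave it a log2 fold change of 3.24 ± 0.97 at a mean of 27.1 normalized reads (adjusted p = 0.0157 by DESeq2). This was the smallest adjusted p among the 48 intervals. A pseudogene, CR46447 (1953652 to 1954480), lies within this intron in the RefSeq annotation, so part of the reads could be its own. How many was not tested.

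No other part of Hr4 passed. Its 5' UTR is listed as 3 isoform intervals between 1941940 and 1942893 that hold the same 19 reads, 2, 1, 5 and 11 in libraries 1 to 4. Most of these reads thus lay in the shallow libraries, 16 against 2.24 for a spread like that of the 5' UTR table. The authors' deposited table gave them a log2 fold change of -2.81 ± 1.51 (adjusted p = 0.129 by DESeq2), which did not pass. Of 122 tested 5' UTR intervals, 10 in 8 genes had a negative value, and over all listed ones only 1 had a lower test statistic than these.

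The intron that follows the called one after an exon of 94 bases (1967990 to 1976571, 8.58 kb) held 1, 0, 1 and 4 reads. The authors' deposited table gave it a log2 fold change of -2.99 ± 1.54 with no adjusted p (DESeq2 p = 0.0515). Coverage dropped to 0.699 reads per kb there, against 15.7 reads per kb in the called intron. The 5 further intron intervals held 2 or 3 reads each. The 4 listed 3' UTR intervals held 4 to 6 reads, with values of 0.13 to 0.60 on the log2 scale in the authors' deposited table, and no coding interval of Hr4 is listed.

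**Figure D2:**
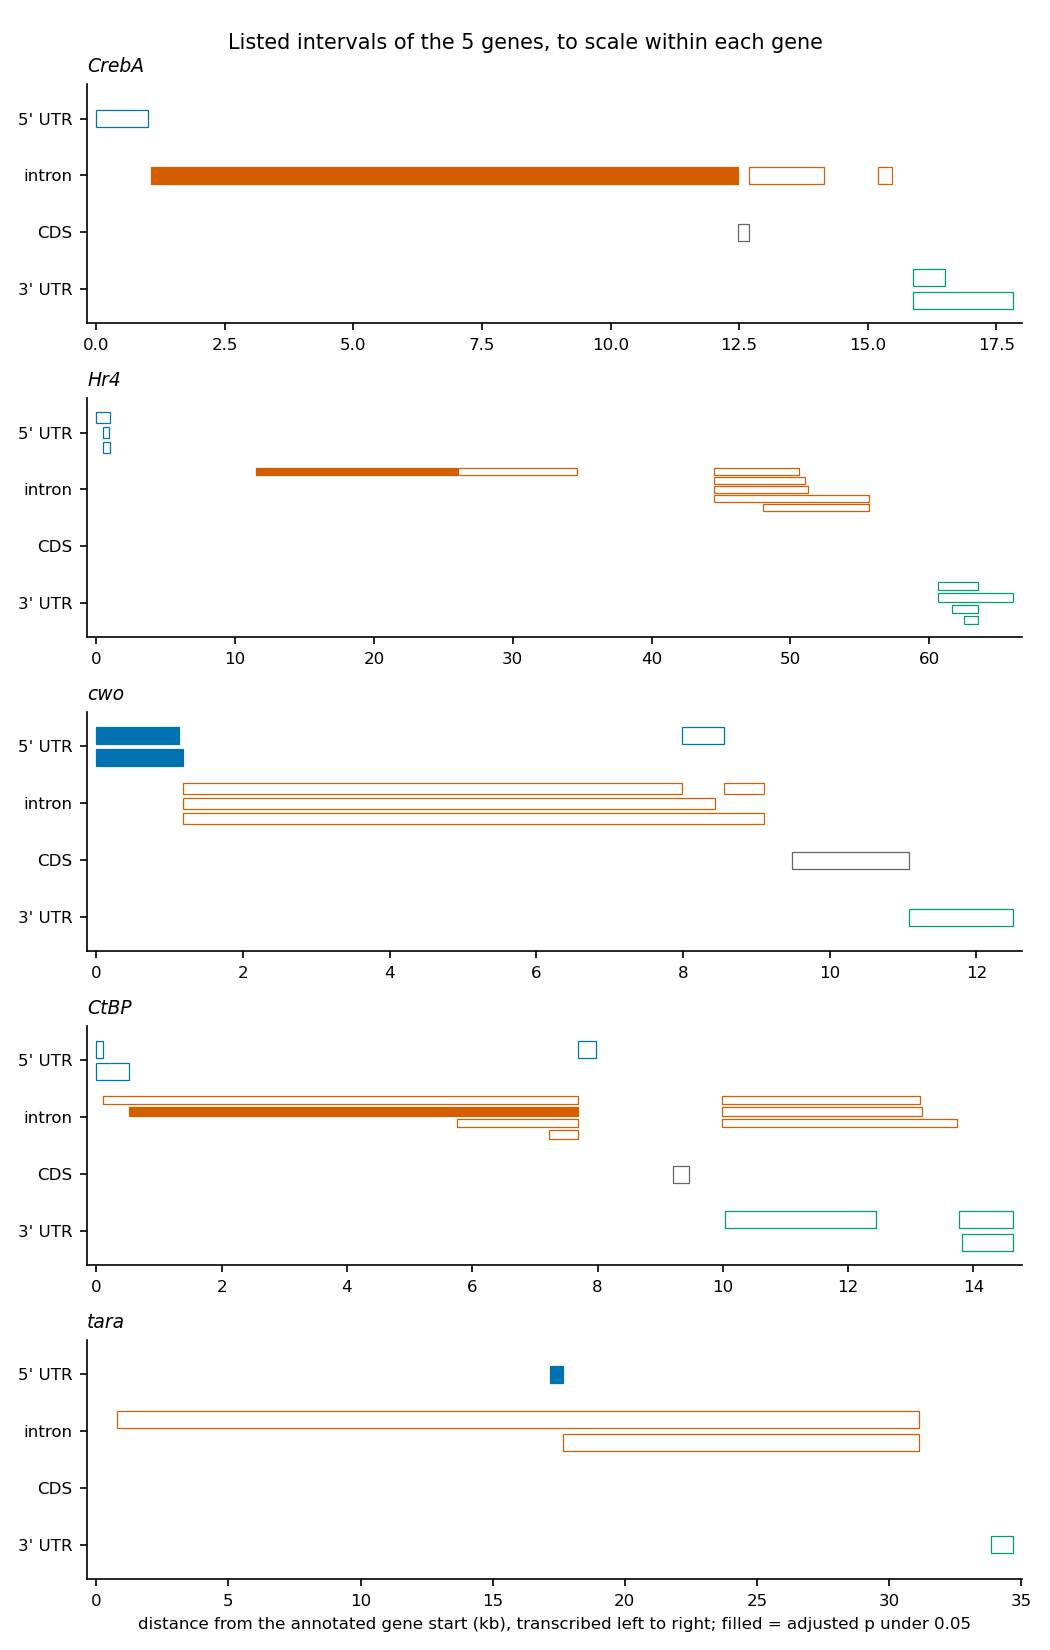
Listed intervals of the 5 genes by table (rows) along each gene, with the distance from the annotated gene start in kb on the x axis. Filled bars passed an adjusted p of 0.05. The cwo 5' UTR lies at the gene start and the tara 5' UTR inside a longer intron interval. The CtBP and Hr4 bars are introns in the 5' part of the gene. The CrebA bar is an intron that starts near the gene start and spans 11.4 kb of the 17.8 kb gene.

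cwo (clockwork orange) encodes a helix-loop-helix repressor of the circadian clock that binds the same sites as the activators Clock and Cycle (3R, 10388258 to 10400752, plus strand). Its first leader exon is listed to 10389378 and to 10389437, and both intervals hold the same reads, 19, 26, 0 and 0 in libraries 1 to 4. Spread as the 5' UTR table, 5.31 of the 45 reads would lie in libraries 3 and 4. The authors' deposited table gave both a log2 fold change of 4.73 ± 1.67 (adjusted p = 0.0490 by DESeq2). This, too, was just inside the threshold. At 38.1 reads per kb, the longer of these intervals was the most densely covered one of cwo apart from its own shorter version.

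The intron that begins at the next base (10389438 to 10396236, 6.80 kb) held 5.15 reads per kb, and its reads were 11, 17, 4 and 3 in libraries 1 to 4. Here 7 reads lay in libraries 3 and 4, against 5.25 for a spread like that of the intron table. The authors' deposited table gave it a log2 fold change of -0.13 ± 1.20, with a 95% interval of -2.48 to 2.21. The second leader exon (10396237 to 10396820) held 3 reads and the coding interval 4. The 3' UTR (10399339 to 10400752) held 7, 5, 5 and 0 reads and had -0.09 ± 1.57 in the authors' deposited table. The difference between the exon and the intron has no test of its own, since each table was scaled separately.

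The cofactors, which reach DNA through other proteins, are CtBP and tara. CtBP encodes a corepressor recruited by short-range repressors of the embryo (3R, 13011649 to 13026275, plus strand). Its listed introns in the 5' part share the end 13019341 and differ in their start, and the next base begins a further leader exon. The interval that passed (13012173 to 13019341, 7.17 kb) held 97, 94, 4 and 0 reads in libraries 1 to 4. Spread as the intron table, 29.2 of these 195 reads would lie in libraries 3 and 4. The authors' deposited table gave it a log2 fold change of 3.06 ± 1.02 (adjusted p = 0.0341 by DESeq2).

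The longer interval that contains it (13011749 to 13019341) held 101, 99, 7 and 1 reads. The authors' deposited table gave it a log2 fold change of 2.29 ± 0.92 with an adjusted p of 0.0900 by DESeq2, the nearest value outside the threshold among the 48 intervals. The extra 424 bases, which are also part of a listed 5' UTR, thus added 4, 5, 3 and 1 reads. The shorter intervals that start at 13017401 and 13018877 held 41 and 18 reads, with 0 in libraries 3 and 4, and had 3.22 ± 1.51 and 2.06 ± 1.61 in the authors' deposited table, both without an adjusted p. These intervals are nested, so they are 1 observation seen at several lengths.

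By subtraction of nested intervals, the reads could be placed within the intron. From 13012173 to 13017400 there were 154 reads (29.5 per kb), from 13017401 to 13018876 there were 23 (15.6 per kb), and the last 465 bases held 18 (38.7 per kb), 17 of them in library 2. The reads were thus spread over the intron and not confined to 1 of these stretches. Such stretches are approximate, since the 424 bases named above hold 13 reads by the intron intervals and 7 by the 5' UTR intervals, so reads across a boundary are not counted alike.

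The leader exons of CtBP on both sides of this intron had values near 0 with wide errors. The first (13011649 to 13012172) held 5, 5, 3 and 1 reads, with 0.37 ± 1.68 in the authors' deposited table, and the exon after the intron (13019342 to 13019619) held 0, 3, 2 and 0 reads, with 0.03 ± 1.98. Further downstream, 3 intron intervals from 13021643 hold the same 51 reads, and a 3' UTR of a shorter isoform (13021678 to 13024097) lies inside them with 48 reads. By these counts, at most 3 of the 51 reads lay outside that 3' UTR. The 3' UTR reads were 24, 14, 3 and 7 in libraries 1 to 4, and its log2 fold change was 0.12 ± 1.12 in the authors' deposited table (adjusted p = 0.969 by DESeq2). The intron intervals had -0.45 ± 1.08 from nearly the same reads, a gap between the separately scaled tables of the authors. Of all tested 3' UTR intervals 33.2% passed in the positive direction, and this was the only tested one of the 5 genes.

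tara (taranis) encodes a cofactor of the TRIP-Br family that acts with trithorax group proteins and cyclins (3R, 16225651 to 16260329, plus strand). Its listed 5' UTR (16242816 to 16243317) is a first exon that lies inside the gene. It held 22, 30, 0 and 0 reads in libraries 1 to 4, where 6.13 of 52 reads would lie in libraries 3 and 4 if spread as the table. At 104 reads per kb it was the most densely covered of the 48 intervals. The authors' deposited table gave it a log2 fold change of 4.94 ± 1.65 (adjusted p = 0.0446 by DESeq2).

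An intron of the longer tara isoform (16226440 to 16256777, 30.3 kb) contains this exon. It held 32, 38, 0 and 1 reads and had 2.93 ± 1.32 in the authors' deposited table, with an unadjusted p of 0.0262 and an adjusted p of 0.138 by DESeq2. Up to 52 of its 71 reads are those of the exon, so it is not a second observation. Outside the exon 19 reads were left over 29.8 kb, 0.637 per kb. The intron just after the exon (16243330 to 16256777) held 5, 3, 0 and 0 reads, and the 3' UTR held 2 reads, both of them in library 3.

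**Figure D3:**
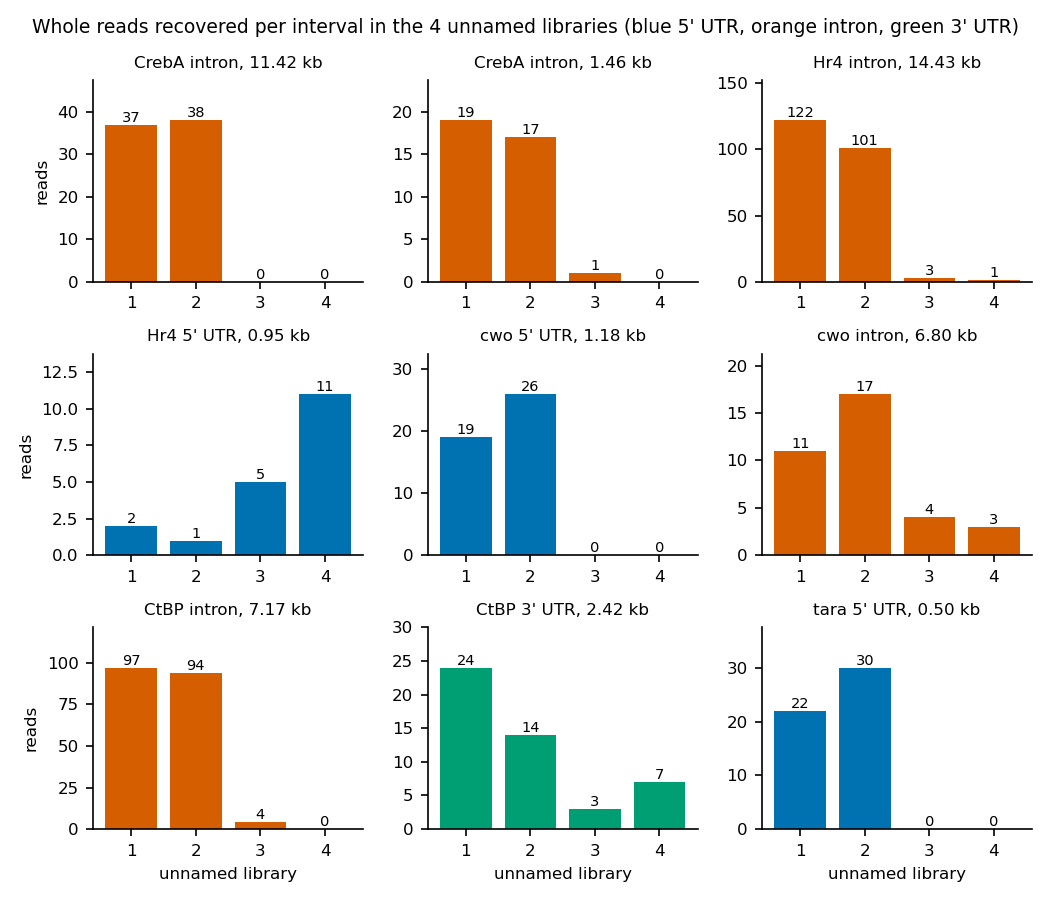
Whole reads (y axis, linear, own scale in each panel) in the 4 unnamed libraries for 9 intervals of the 5 genes. The 5 called intervals have at most 4 reads in libraries 3 and 4 together, whereas the Hr4 5' UTR has 16 there and the cwo intron and the CtBP 3' UTR have 7 and 10. Reads in libraries 3 and 4 lower the fold change, so this contrast restates the values by which intervals were called.

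The 5 genes were then compared between parts of the transcript. Outside the table that chose each gene, 27 intervals remained, of which 11 have an adjusted p, and 0 of these 11 were under 0.05 in the authors' deposited tables. The 11 are 3 intervals of Hr4 in 5' UTRs that share their reads, 3 introns of cwo, 1 intron of tara, 1 3' UTR of CtBP and 3 in CDS, and the other 16 could not pass. Of all tested intervals, 10.7% in 5' UTRs, 3.62% in introns and 33.2% in 3' UTRs passed with positive values. At an unadjusted DESeq2 p of 0.05, 1 of the 27 passed, the tara intron that contains the called exon, against 2.13% of all 5' UTR, 3.71% of all intron and 4.54% of all 3' UTR intervals. Positive values were found for 3 of 7 of these intervals in 5' UTRs, 2 of 6 in introns, 7 of 11 in 3' UTRs and 2 of 3 in CDS, against 82.7%, 62.3%, 59.7% and 68.3% of all listed intervals of those tables. The 5' UTR and intron counts repeat reads, so these shares are not of independent intervals. The 3 Hr4 intervals share their reads, and the introns of cwo overlap, as do those of tara. In coding sequence 3 of the 48 intervals are listed, with 2 to 4 reads, and 0 of 3 passed, as did 0% of all tested CDS intervals. The 11 listed 3' UTR intervals had values from -1.42 to 0.85 on the log2 scale of the authors' deposited table. These intervals held 2 to 48 reads, so a moderate difference was not detectable in most of them.

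Empty shallow libraries were common in one table and rare in the other. Of 122 tested 5' UTR intervals, 60 had 0 reads in libraries 3 and 4, among them those of tara and cwo, and 10 of the 60 passed. In introns 30 of 1023 tested intervals had 0 reads in both libraries, among them that of CrebA, and 10 of the 30 passed. Such intervals reached the mean needed for a test through libraries 1 and 2 alone. The tested 5' UTR intervals, which are those with a high enough mean, were 91.8% positive in the authors' deposited table. Their median there was 3.26 on the log2 scale. Over all 2159 listed 5' UTR intervals the median was 0.74. Of the tested ones, 5.74% had a value as large as that of tara and 9.02% one as large as that of cwo. Tested introns had a median of 0.71 and all listed introns 0.18. Of the tested introns, 4.69% and 5.67% had a value as large as those of Hr4 and CtBP. In 5' UTRs the size factors of libraries 1 to 4 were 1.61, 1.06, 0.760 and 0.633. They differed much less than the reads, which were 3871, 3966, 696 and 352. In introns the size factors were 2.60, 1.89, 0.551 and 0.402, nearer to the spread of the reads. The size of a 5' UTR value is therefore not comparable with that of an intron value.

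**Figure D4:**
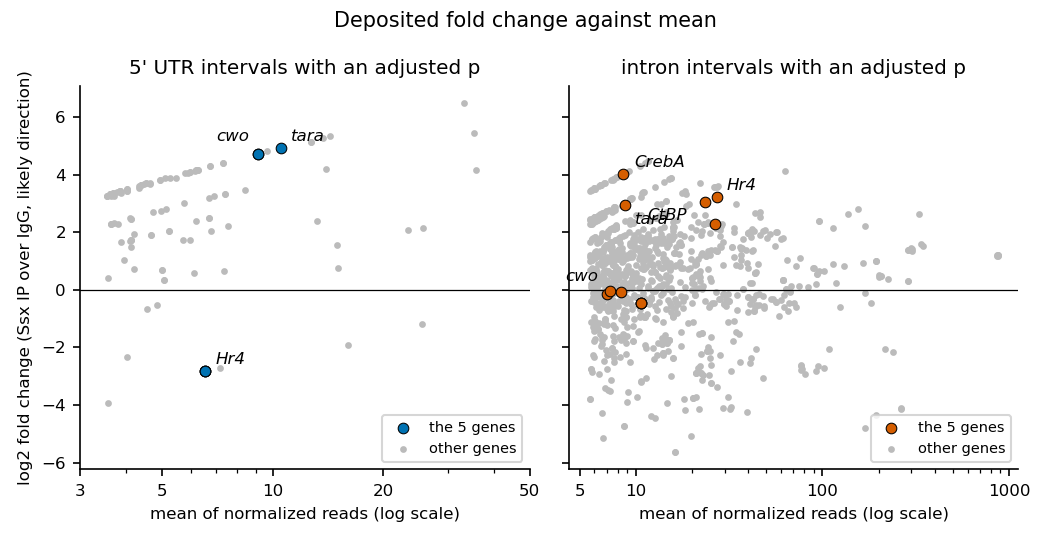
Deposited log2 fold change (y axis) against the mean of normalized reads (x axis, log scale) for all tested 5' UTR intervals (left) and introns (right), with the 5 genes coloured and other genes in grey. tara and cwo lie on the upper edge of the 5' UTR cloud and CrebA on that of the introns, edges formed by intervals with 0 reads in libraries 3 and 4, while the Hr4 5' UTR lies far below 0.

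Genes that share a family or a process with these regulators were counted in 6 lists. These hold clock genes, nuclear receptors and ecdysone genes, corepressors, basic leucine zipper factors, helix-loop-helix Orange factors, and trithorax group genes with cell cycle partners. Without the 5 genes the lists hold 113 names. In introns 56 were listed and 18 tested, and 1 was higher and 0 lower in the Ssx IP, against 4.73% of all tested genes higher and 6.9% lower. In 5' UTRs 33 were listed and 6 tested, with 0 called against 11% of all tested genes. In 3' UTRs 61 were listed and 5 tested, with 1 higher against 36.5%. In CDS 30 were listed and tested, with 0 called, against 0% of all 1432 tested genes. By unadjusted DESeq2 p 0 of them passed 0.05, as did 0 of all 1921 CDS intervals. Nothing can thus be read about the lists from CDS. On the log2 scale, tested list genes had a median of 1.24 in introns (0.74 over all tested genes), 3.53 in 5' UTRs (3.23) and 1.52 in 3' UTRs (1.73), in the authors' deposited tables and with 1 interval per gene.

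The called list gene in introns was nmo, a Nemo-family kinase that phosphorylates clock proteins, with 129, 141, 2 and 4 reads in libraries 1 to 4 and 2.97 ± 0.89 in the authors' deposited table (adjusted p = 0.0157 by DESeq2). In 3' UTRs it was CoRest, a corepressor that works with a histone demethylase, with 41, 39, 1 and 0 reads and 3.87 ± 1.33 in the authors' deposited table (adjusted p = 0.0153 by DESeq2). Among factors of the class of CrebA, the intron of kay (the fly Fos) was nearest with 63, 87, 1 and 2 reads and 2.99 ± 1.06 in the authors' deposited table (adjusted p = 0.0506 by DESeq2). In the list of Hr4, the smallest intron p was that of EcR, the ecdysone receptor itself, in the opposite direction. This EcR intron had 276, 99, 401 and 28 reads and -2.17 ± 0.82 in the authors' deposited table (adjusted p = 0.0705 by DESeq2). Library 3 alone thus held about as many of its reads as the other libraries together, 401 of 804. The other tested EcR introns were split in direction. They had 3.63 and 3.44 (adjusted p = 0.0900 and 0.113 by DESeq2), and -1.78 and -0.15 (adjusted p = 0.225 and 0.933).

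In 5' UTRs the leading list genes were crc, the fly ATF4 (18, 22, 0 and 1 reads), the deacetylase HDAC4 (12, 13, 0 and 0) and the cohesin loader Nipped-B (3, 21, 0 and 0). Their values in the authors' deposited table were 3.46 ± 1.56, 3.82 ± 1.77 and 3.88 ± 1.79, and 0 of these 3 passed (adjusted p = 0.117 by DESeq2 for each). The HDAC4 intron had 22, 46, 0 and 1 reads and 2.92 ± 1.33 in the authors' deposited table, also short of the threshold (adjusted p = 0.142 by DESeq2). The Orange family, to which cwo belongs, had 0 tested genes in 5' UTRs and introns.

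Genes most like each of the 5 were found by the mean absolute difference in the percentile of the test statistic over all tables that list the gene. For tara these were CG5973 and Pdi, a protein disulfide isomerase, at 1.08 and 1.31 percentage points over 3 tables among 610 genes. For Hr4 they were cta, a G protein subunit, and CG12065, at 3.996 and 4.03 points over 3 tables. CrebA was nearest to the RNA-binding factors mbl and A2bp1, at 7.68 and 7.81 points over 4 tables among 316 genes. CtBP was nearest to step and CASK (9.68 and 10.3 points) and cwo to eIF-5A and Mnt (10.1 and 10.3 points). Most of these percentiles outside the called interval come from a handful of reads, so the likeness is a description only.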

How the data were processed

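Per the submitters' processing notes, cutadapt 1.6, Bowtie 0.12.7, DESeq2 1.14.1 and DESeq were used with the builds BDGP6 and dm6. How reads were counted, on which strand, with which annotation and whether duplicates were removed is not given in the sources used here. Per the file headers, the authors deposited a mean signal (normalized reads), a log2 fold change with its standard error on the log2 scale, a test score (fold change over standard error) and p-values per interval. No test was run on them here. The libraries solved from the tables carry no names, and their grouping is known only from the signs of the fold changes. No contrast between groups was refitted without a replicate. Whole reads were solved from the deposited means within a relative tolerance of 1e-13 (uniquely for 100% of intervals in 3 tables and 99.9% of introns) and tested on simulated data. The order of libraries came from intervals sharing reads (14 of 14, 19 of 19 and 22 of 22 pairs equal). Adjusted p-values were recomputed with Benjamini-Hochberg over other sets of intervals. The members and lists were chosen with earlier results of these data known. Named beside the 5 genes are list genes that passed or had the smallest p per list and table, and the 2 genes most like each member. All 5 symbols matched RefSeq Release 6. Python 3.11.15, pandas 2.3.3 and numpy 2.4.6 were used.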

Additional observations from a re-analysis of the deposited data

How the results depend on the processing

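The calls are fragile, and the directions rest on a sign that the tables do not write. Adjusted by Benjamini-Hochberg over all listed intervals of a table, 0 of the 48 intervals passed, and the same count of 0 was found over the 4 tables together and at a threshold of 0.01. The log2 fold changes of the intervals are fixed under these settings, and the adjusted p became 0.724 and 0.316 for tara (4.94), 0.756 and 0.444 for cwo (4.73), 0.421 and 0.448 for CrebA (4.04), 0.282 and 0.316 for CtBP (3.06) and 0.156 and 0.171 for Hr4 (3.24), over the table and over the 4 tables. The wider sets bring back intervals of low mean that have no deposited adjusted p. All listed intervals had a median of 3 reads in 5' UTRs and 6 in introns. A loss of calls was thus likely in advance in these wider sets. With the adjustment limited to intervals that have a deposited one, 5 passed and CrebA was lost (4.04, adjusted p = 0.0506). With the opposite sign the values would be -4.94 for tara, -4.73 for cwo, -4.04 for CrebA, -3.06 for CtBP and -3.24 for Hr4, lower in the Ssx IP. The count was 7 at a threshold of 0.1, 6 without intervals that overlap another listed gene, 4 with only the interval of highest mean per gene and table, and 5 with equal read sets counted a single time, an alternative chosen after seeing the data. Outside the table that chose each gene, 1 of 27 passed by unadjusted p in place of 0. No paired analysis was possible because the libraries solved from the tables carry no names by which to pair them. Leaving out replicates was not run. With 0 to 4 reads in libraries 3 and 4, depth limits the fold changes of the called intervals.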

Other observations

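The size factor of library 3 was 0.760 in 5' UTRs, 0.551 in introns and 0.760 in 3' UTRs, but 1.67 in CDS, where this library was the second deepest, with 2201 reads against 2983, 1314 and 651 in libraries 1, 2 and 4. Folds of the 5 genes in CDS are therefore on another scale than those in the other parts. The other parts do not share a scale either. The size factor of library 1 was 1.61 in 5' UTRs, 2.60 in introns and 2.09 in 3' UTRs, and that of library 4 was 0.633, 0.402 and 0.473.

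The last 465 bases of the CtBP intron before its downstream leader exon held 1, 17, 0 and 0 reads in libraries 1 to 4. In the 5228 bases at the start of the called intron the reads were 85, 65, 4 and 0. Library 2 thus held nearly all reads of the last stretch, a difference that was chosen after its values were seen and was not tested.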
